A study of Mus musculus with 20 samples.

Results

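Kera, Lum, Dcn and Epyc are neighbouring genes on mouse chromosome 10 that encode the small leucine-rich proteoglycans keratocan, lumican, decorin and epiphycan. They were chosen by their place side by side on the chromosome and by their log2 differences between knockout and wild-type limbs in earlier results of these data, so the knockout values below are a description without a test. Each gene had 1 probe set, which gave 4 genes of 19936 measured. The arrays were hybridised with RNA of single whole limbs from 129Sv mouse embryos at embryonic day 13.5 (E13.5), and the series asks which limb genes LMX1B controls. There were 5 forelimbs homozygous for loss of Lmx1b (Lmx1b-/-), 5 wild-type forelimbs, 5 Lmx1b-/- hindlimbs and 5 wild-type hindlimbs, with 2 left and 3 right limbs in each group. The product of Lmx1b, LMX1B, is a homeodomain protein of the LIM class that the dorsal mesenchyme of a limb needs for its dorsal pattern. The mutation is given as present in the whole animal, and dorsal and ventral tissue were not separated.

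Small leucine-rich proteoglycans are secreted proteins built around a curved stack of leucine-rich repeats, and many of them carry sulfated sugar chains. Several bind collagen, and decorin and lumican limit how thick collagen fibrils grow in skin, tendon and cornea. Keratocan and lumican carry keratan sulfate in the cornea, decorin carries a chondroitin or dermatan sulfate chain, and epiphycan is a proteoglycan of growth-plate cartilage.

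Levels below are log2 intensities of a probe set, so a difference of 1 is a 2-fold change in intensity, and levels are compared between arrays but not between genes. Lmx1b itself averaged 5.72 ± 0.079 in knockout forelimbs and 6.30 ± 0.127 in wild-type forelimbs, and 5.92 ± 0.114 in knockout hindlimbs and 6.45 ± 0.083 in wild-type hindlimbs (SD, n = 5 each). Its difference over both limb types was -0.55 (SE 0.0487, limma adjusted p = 2.63e-07). The forelimb factor Tbx5 averaged 4.68 in knockout hindlimbs and 4.73 in wild-type hindlimbs, against 8.75 in knockout forelimbs and 8.50 in wild-type forelimbs. Y-linked transcripts split the arrays into 13 male and 7 female limbs. Of the knockout forelimbs 3 were female, against 0 of the wild-type forelimbs, and each hindlimb group held 2 females. Median intensity per array ran from 28.6 to 31.8.

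Kera, the gene of keratocan, was far lower without Lmx1b in forelimbs and hindlimbs. Its levels in knockout forelimbs were 5.55, 5.59, 5.87, 6.03 and 6.34, against 8.80, 8.94, 8.96, 9.04 and 9.11 in wild-type forelimbs. In knockout hindlimbs they were 5.24, 5.53, 5.57, 5.60 and 5.96, against 8.09, 8.30, 8.47, 8.56 and 8.83 in wild-type hindlimbs. The genotypes did not overlap in either limb type: the highest knockout lay 2.45 below the lowest wild type in forelimbs and 2.13 below it in hindlimbs. The mean difference over both limb types was -2.98 (SE 0.103), a 7.89-fold lower intensity, and the most negative difference of the 19936 genes. It was -3.09 in forelimbs and -2.87 in hindlimbs (SE 0.146 each).

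RefSeq promoter windows were at hand for Kera and Epyc, the neighbours with the largest and the smallest knockout difference, and are shown so that both can be read side by side. Each line holds the 250 bases before an annotated start on GRCm38.p6, plus strand, chr10:97606955-97607204 for Kera and chr10:97643818-97644067 for Epyc, and capitals mark TAAT or its reverse complement ATTA, the core letters that many homeodomain proteins bind.
Kera: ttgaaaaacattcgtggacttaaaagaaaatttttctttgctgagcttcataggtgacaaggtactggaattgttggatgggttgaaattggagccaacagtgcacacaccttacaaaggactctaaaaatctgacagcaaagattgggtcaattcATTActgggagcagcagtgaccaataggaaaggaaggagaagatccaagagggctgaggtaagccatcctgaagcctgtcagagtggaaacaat
Epyc: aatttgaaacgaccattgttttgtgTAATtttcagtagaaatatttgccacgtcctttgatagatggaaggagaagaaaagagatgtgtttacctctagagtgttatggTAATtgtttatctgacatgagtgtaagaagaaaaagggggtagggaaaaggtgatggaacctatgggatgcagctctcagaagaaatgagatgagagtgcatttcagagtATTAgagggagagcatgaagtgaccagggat
Kera's window held 1 match, at -94 to -91 from the start, and Epyc's held 3, at -225 to -222, -141 to -138 and -31 to -28. These 4 letters were searched for on both strands after the longer TAATTA had given no match, and they occur in 54.92% of all 32851 windows of this length, against 4.84% for TAATTA, which contains them. TATAAA, found in 12.37% of windows, had no match in either. CANNTG, found in 66.22%, had none in either. RefSeq's span of the Kera gene begins inside its window. A second annotated start of Epyc lies within the gene, and its window, not printed here, held 5 TAAT or ATTA, 2 CANNTG and 0 TATAAA or TAATTA.

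**Figure D1:**
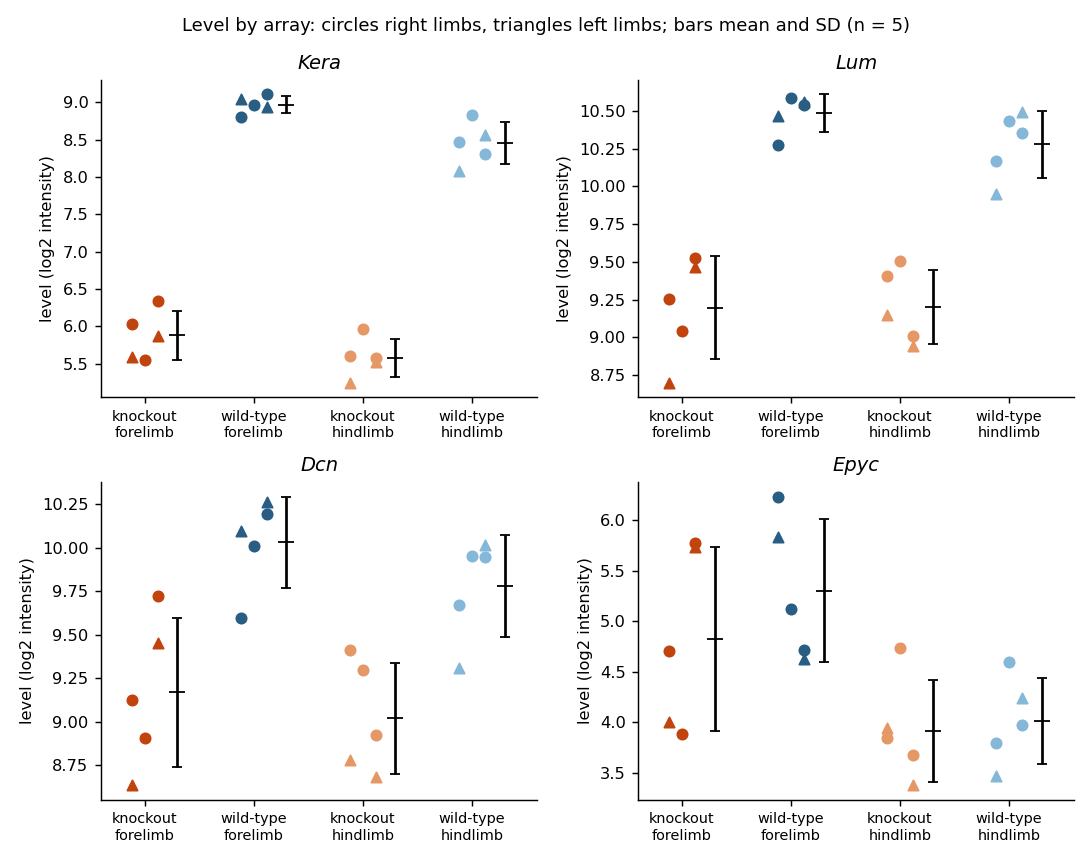
Log2 intensity of Kera, Lum, Dcn and Epyc on each array (vertical axis, own scale for each gene) in knockout forelimbs, wild-type forelimbs, knockout hindlimbs and wild-type hindlimbs; circles are right limbs, triangles left limbs, and bars the mean and SD of 5. Kera and Lum are lower in all 5 knockout limbs than in any wild-type limb of the same type, Dcn overlaps by 1 knockout limb in each, and Epyc overlaps widely.

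Lum, the gene of lumican, stood lower in every knockout limb than in any wild-type limb of its type, by less than Kera. Its levels in knockout forelimbs were 8.70, 9.04, 9.26, 9.46 and 9.53, against 10.27, 10.46, 10.54, 10.56 and 10.59 in wild-type forelimbs. In knockout hindlimbs they were 8.94, 9.01, 9.15, 9.41 and 9.50, against 9.95, 10.17, 10.35, 10.43 and 10.49 in wild-type hindlimbs. The gap between the genotypes was 0.75 in forelimbs and 0.45 in hindlimbs. The mean difference over both limb types was -1.18 (SE 0.0989), a 2.27-fold lower intensity, with -1.29 in forelimbs and -1.08 in hindlimbs (SE 0.140 each).

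Dcn, the gene of decorin, was lower on average in knockouts, with overlap. Its levels in knockout forelimbs were 8.63, 8.91, 9.13, 9.45 and 9.72, against 9.59, 10.01, 10.10, 10.20 and 10.26 in wild-type forelimbs. In knockout hindlimbs they were 8.68, 8.78, 8.92, 9.30 and 9.41, against 9.31, 9.67, 9.95, 9.95 and 10.02 in wild-type hindlimbs. In each limb type 4 of 5 knockouts lay below the lowest wild type, and the remaining knockout passed that lowest limb. The mean difference over both limb types was -0.81 (SE 0.132), a 1.76-fold lower intensity, with -0.86 in forelimbs and -0.76 in hindlimbs (SE 0.187 each).

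Epyc, the gene of epiphycan, showed no separation by genotype and the widest spread between limbs of 1 group. Its levels in knockout forelimbs were 3.88, 4.002, 4.71, 5.73 and 5.78, against 4.62, 4.71, 5.12, 5.83 and 6.24 in wild-type forelimbs. In knockout hindlimbs they were 3.38, 3.68, 3.85, 3.94 and 4.74, against 3.47, 3.79, 3.97, 4.24 and 4.59 in wild-type hindlimbs. The SD within a group ran up to 0.911 in knockout forelimbs. The mean difference over both limb types was -0.29 (SE 0.259, 95% interval -0.829 to 0.247), an interval that holds 0, with -0.48 in forelimbs and -0.10 in hindlimbs (SE 0.366 each). Leaving out 1 array moved these to between -0.41 and -0.17 over both limb types, between -0.72 and -0.25 in forelimbs and between -0.30 and 0.05 in hindlimbs. Epyc was dim: the array medians ran from 4.84 to 4.99, and its means were 3.92 in knockout hindlimbs and 4.01 in wild-type hindlimbs, so a fold change of it is uncertain.

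Over all genes, every knockout forelimb lay below every wild-type forelimb for 1.72%, every knockout hindlimb below every wild-type hindlimb for 0.903%, and both held for 0.271%, or 54 genes, of which Kera and Lum were 2. These values chose the genes, so nothing is read from that count. In male arrays alone the differences over both limb types were -2.89 for Kera (SE 0.112), -0.99 for Lum (SE 0.0959), -0.62 for Dcn (SE 0.144) and 0.13 for Epyc (SE 0.277). The male arrays were 2 knockout and 5 wild-type forelimbs and 3 hindlimbs of each genotype. For a call lost in them, here and below, fewer arrays and sex cannot be told apart. In whole limbs, fewer cells that make a transcript and less transcript per cell cannot be told apart.

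The genotype difference was also set against marker lists for the tissues of a limb. The mean level of 11 tendon and ligament markers was 6.40 ± 0.122 in knockout forelimbs and 6.81 ± 0.086 in wild-type forelimbs, with ranges of 6.27 to 6.54 and 6.67 to 6.90 that did not overlap. In hindlimbs it was 6.21 ± 0.141 in knockouts and 6.34 ± 0.166 in wild type, with ranges of 6.11 to 6.44 and 6.05 to 6.46. Of these 11 markers 3 were lower in knockouts over both limb types: Thbs4, a tendon matrix protein, by -0.92 (SE 0.118, limma adjusted p = 5.03e-05), Tnmd, a tendon membrane protein, by -0.68 (SE 0.173, adjusted p = 0.0432, lost in 14 of the 20 fits that left out 1 array), and Col14a1. The tendon transcription factor Scx differed by -0.07 (SE 0.0663, adjusted p = 0.697). In forelimbs alone 2 of the 11 were lower, where 1.03% of all genes were. In hindlimbs alone 0 passed in limma (1 at an unadjusted p under 0.05), where 0.226% of all genes were lower. Thbs4 averaged 5.97 in knockout and 7.51 in wild-type forelimbs, and its hindlimb difference was -0.30 (SE 0.166, limma adjusted p = 0.92). As a covariate, here and below, the tendon list was taken as its mean without Fmod, itself a small leucine-rich proteoglycan gene. With it the differences over both limb types were -2.55 for Kera (SE 0.117), -0.83 for Lum (SE 0.126), -0.37 for Dcn (SE 0.175) and 0.26 for Epyc (SE 0.394). The mean level of 27 skeletal muscle markers was 7.18 ± 0.153 in knockout forelimbs and 7.56 ± 0.201 in wild-type forelimbs, and 6.86 ± 0.139 in knockout hindlimbs and 6.92 ± 0.166 in wild-type hindlimbs. With that list as a covariate the differences were -2.77 for Kera, -0.99 for Lum, -0.54 for Dcn and -0.08 for Epyc. The part of these tissues in the differences was not tested.

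Whether the neighbourhood moved with the cluster was asked of the 10 nearest measured protein-coding genes on each side. RefSeq places Dcn, Lum, Kera and Epyc in that order, with Btg1 next to Dcn and Ccer1 next to Epyc. Along the cluster the knockout difference was -0.81 at Dcn, -1.18 at Lum, -2.98 at Kera and -0.29 at Epyc. Btg1, an antiproliferative gene, differed by -0.04 (SE 0.0470, limma adjusted p = 0.728) and Ccer1 by -0.07 (SE 0.0874, adjusted p = 0.772), so neither adjoining gene passed the test. Of the 20 neighbours 2 were lower and 1 was higher in knockouts, against a background of 2.04% of all genes called, 1.57% lower and 0.466% higher. At an unadjusted p under 0.05 there were 9 of the 20, against 2928 of all 19936 genes. Tmcc3, the farthest of the 10 on its side, fell by 0.29 (SE 0.0541, adjusted p = 0.00424). Atp2b1, a plasma membrane calcium pump gene next but 1 to Epyc, fell by 0.23 (SE 0.0597, adjusted p = 0.0432), a call lost in 16 of the 20 fits that left out 1 array. Ube2n, a ubiquitin-conjugating enzyme gene, rose by 0.19 (SE 0.0450, adjusted p = 0.0238). The call of Atp2b1 and that of Ube2n were also lost with each array centred on its median or a Y-linked level as a covariate. All 3 calls were lost in male arrays alone, with the tendon list and with the muscle list as a covariate. That of Ube2n was also lost without knockout forelimb replicate 4, knockout hindlimb replicate 8 or knockout hindlimb replicate 10. Socs2, a gene for a suppressor of cytokine signalling, was higher in knockout forelimbs (0.35, SE 0.0678, adjusted p = 0.00826) and did not pass over both limb types (0.17, adjusted p = 0.0664). The 20 differences ran from -0.38, at Plxnc1, to 0.19, with a median of -0.06, against a median of -0.002 over all genes. The non-coding genes 4930473O22Rik and Gm40749, which RefSeq places between the proteoglycan genes, were not among the genes tested.

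**Figure D2:**
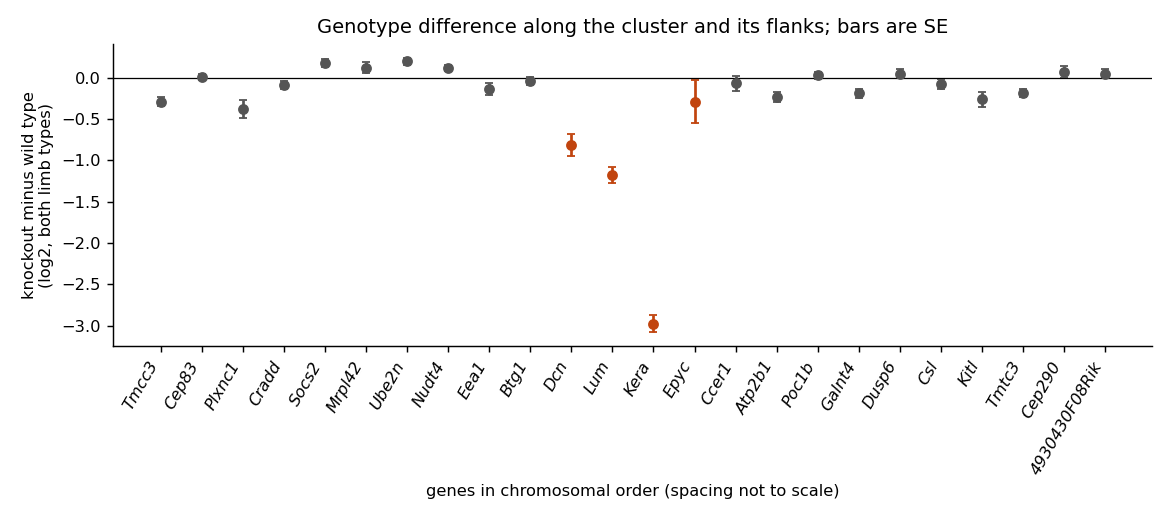
Knockout minus wild-type difference over both limb types (log2, vertical axis; bars are SE) of the 4 proteoglycan genes in orange and 20 measured neighbours in grey, in chromosomal order with spacing not to scale. The neighbours lie between -0.38 and 0.19, while Dcn, Lum and Kera lie at -0.81, -1.18 and -2.98.

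Related gene groups were compared in the same fit. Of 13 other small leucine-rich proteoglycans, 0 passed the test over both limb types, in forelimbs or in hindlimbs, where 2.04%, 1.27% and 0.231% of all genes did; at an unadjusted p under 0.05 in limma there were 2, 3 and 0. Their median difference over both limb types was -0.05. Aspn, the gene of asporin, averaged 7.98 in knockout forelimbs and 8.66 in wild-type forelimbs, and 7.43 in knockout hindlimbs and 7.50 in wild-type hindlimbs (difference -0.37, SE 0.181, adjusted p = 0.341). Bgn, the gene of biglycan and a close relative of decorin, differed by -0.23 (SE 0.0910, adjusted p = 0.22), and Fmod, the gene of fibromodulin and a relative of lumican, by -0.03 (SE 0.0801, adjusted p = 0.912). Aspn, Bgn and Fmod are named as relatives, chosen after their values were seen.

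Of 26 genes of collagen fibrils and their crosslinking, 8 were lower in knockouts over both limb types and 0 were higher, where 1.57% of all genes were lower and 0.466% higher, with a median difference of -0.15. Col12a1, a fibril-associated collagen, averaged 6.75 in knockout forelimbs and 7.68 in wild-type forelimbs, and 6.43 in knockout hindlimbs and 6.74 in wild-type hindlimbs, and fell by 0.62 (SE 0.0971, limma adjusted p = 0.000673). Col14a1, another fibril-associated collagen, fell by 0.75 (SE 0.158, adjusted p = 0.0117). Col5a2, a chain of the collagen that starts fibrils, fell by 0.44 (SE 0.0862, adjusted p = 0.00662). Col3a1 fell by 0.37 (SE 0.0770, adjusted p = 0.00965), and Pcolce, an enhancer of procollagen cleavage, by 0.23 (SE 0.0501, adjusted p = 0.0136). The other calls were Col5a1, Col6a1 and Lox, the gene of lysyl oxidase, each lost in 14 or 15 of the 20 fits that left out 1 array. In forelimbs alone 6 of the 26 were lower, where 1.03% of all genes were. In hindlimbs alone 0 passed in limma (5 at an unadjusted p under 0.05), where 0.226% of all genes were lower. The difference between these counts was not tested. All 8 calls were lost in male arrays alone and with the tendon list as a covariate, and 7 of the 8 with the muscle list.

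Sugar chain enzymes gave 1 call over both limb types, where 2.04% of all genes passed. Of 12 genes for keratan sulfate chains 0 passed over both limb types in limma (1 at an unadjusted p under 0.05), with a median difference of -0.04. Of 22 genes for chondroitin and dermatan sulfate chains 1 passed: Chst15, a chondroitin sulfotransferase gene, fell by 0.24 (SE 0.0588, limma adjusted p = 0.0314), a call lost in 9 of the 20 fits that left out 1 array and in male arrays alone. Of 17 genes for receptors, growth factors and other partners of decorin and lumican 0 passed in limma (5 at an unadjusted p under 0.05), with a median of -0.08. Among 9 genes of dorsoventral patterning 1, Lmx1b, was lower and 2 were higher over both limb types, where 1.57% of all genes were lower and 0.466% higher. Lhx2 and Lhx9, LIM-homeodomain genes of the limb, were higher by 0.31 (SE 0.0719, limma adjusted p = 0.0227) and 0.44 (SE 0.109, adjusted p = 0.036), calls that were lost in male arrays alone. The Lhx2 call was also lost without wild-type forelimb replicate 3 or wild-type hindlimb replicate 7, and the Lhx9 call in 10 of the fits that left out 1 array. Both genes passed as higher in forelimbs alone. Neither passed in hindlimbs alone, where Lhx2 differed by 0.13 (SE 0.102, limma adjusted p = 0.96) and Lhx9 by 0.19 (SE 0.154, adjusted p = 0.975).

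**Figure D3:**
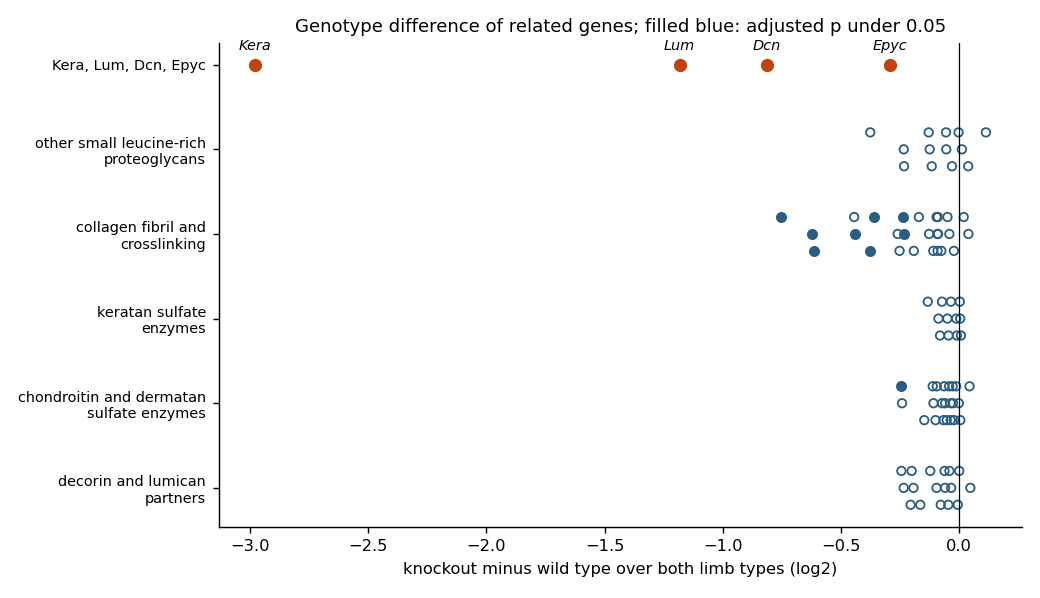
Knockout minus wild-type difference over both limb types (log2, horizontal axis) of the 4 proteoglycan genes in orange and of each measured gene of 5 related lists in blue, filled where the limma adjusted p is under 0.05. Kera, Lum and Dcn lie left of every gene of the 5 lists, down to -2.98, and the filled points are 8 collagen fibril genes and 1 chondroitin and dermatan sulfate gene.

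The remaining marker lists give the tissue background of the genotype contrast. Of 7 osteoblast and perichondrium markers 4 were lower in knockouts over both limb types, where 1.57% of all genes were lower and 0.466% higher. Ibsp, the gene of bone sialoprotein, averaged 3.65 in knockout forelimbs and 6.05 in wild-type forelimbs, and 3.64 in knockout hindlimbs and 3.85 in wild-type hindlimbs. Against the same shares, lower counts over both limb types were 6 of 27 for skeletal muscle, 3 of 13 for endothelium and 2 of 12 for macrophages. They were 1 of 9 for dermal and loose connective tissue fibroblasts and 2 of 12 for neurons and Schwann cells, with 1 gene of the last list higher. No marker passed in limma among 15 of cartilage, 14 of epidermis or 9 of the joint interzone (0 of each at an unadjusted p under 0.05). None passed among 8 of muscle connective tissue, 8 of limb mesenchyme and limb type or 5 of erythroid cells (2, 4 and 3 at an unadjusted p under 0.05). In forelimbs alone 4 osteoblast, 6 muscle, 2 endothelium, 2 macrophage and 2 neuron and Schwann cell markers were lower, where 1.03% of all genes were. In hindlimbs alone these counts were 0, 0, 0, 0 and 1 in limma, where 0.226% of all genes were lower. At an unadjusted p under 0.05 the hindlimb counts were 0, 2, 4, 1 and 4. The difference between forelimb and hindlimb counts was not tested. The calls over both limb types of osteoblast, endothelium, macrophage and dermal fibroblast markers were all lost in male arrays alone and with either covariate, the tendon or the muscle list. Those of tendon markers were all lost in male arrays. Of the 6 muscle calls 5 were lost in male arrays, 6 with the tendon list and 5 with the muscle list, which holds these genes. Of the 3 neuron and Schwann cell calls 2, 3 and 1 were lost in the same settings. The part of these tissues in the proteoglycan values was not tested.

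Whether the genotype difference depended on limb type was asked of the hindlimb difference minus the forelimb difference. The choice of the genes used the knockout differences that this contrast compares. Its p-values and intervals are therefore not independent of that choice. None of the 4 passed, also at an unadjusted p under 0.05, and over all genes 4 passed, or 0.0201%. The value was 0.22 for Kera (95% interval -0.208 to 0.650), 0.21 for Lum (-0.201 to 0.620), 0.10 for Dcn (-0.445 to 0.652) and 0.39 for Epyc (-0.689 to 1.46), with limma adjusted p = 1 for each. For Kera the upper end was 0.650, beside a forelimb difference of -3.09.

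Limb type itself came with a difference in the mean level of Epyc and Kera. Over both genotypes Epyc differed by -1.10 between hindlimbs and forelimbs (SE 0.259, limma adjusted p = 0.0131), at hindlimb levels below the median of the arrays. Kera differed by -0.41 (SE 0.103, adjusted p = 0.0207), and both were lower in hindlimbs. Lum differed by -0.10 (SE 0.0989, 95% interval -0.306 to 0.105, adjusted p = 0.605) and Dcn by -0.20 (SE 0.132, 95% interval -0.475 to 0.0732, adjusted p = 0.402). So 2 of the 4 passed, where 5.96% of all genes did. The Kera call was lost in male arrays alone (-0.47, adjusted p = 0.0527) and with all probe sets tested (-0.41, adjusted p = 0.0511).

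Within wild type all 5 hindlimbs lay below all 5 forelimbs for Epyc, an order that 3.2% of all genes showed, and the difference was -1.29 (SE 0.366, limma adjusted p = 0.0552). For Kera 4 of 5 wild-type hindlimbs lay below every wild-type forelimb and the difference was -0.52 (SE 0.146, adjusted p = 0.0539). Lum differed by -0.21 (adjusted p = 0.498) and Dcn by -0.25 (adjusted p = 0.542), so 0 of the 4 passed within wild type in limma (2 at an unadjusted p under 0.05), where 3.26% of all genes did. Within knockouts the differences were -0.90 for Epyc (SE 0.366, adjusted p = 0.39), -0.30 for Kera (SE 0.146, adjusted p = 0.519), -0.15 for Dcn (adjusted p = 0.866) and 0.00 for Lum (adjusted p = 0.997), with 1 of the 4 at an unadjusted p under 0.05, and 0.617% of all genes passed. From high to low, Kera stood highest in forelimbs of wild type, next in hindlimbs of wild type, then in forelimbs and last in hindlimbs of knockouts, and the step between limb types passed the test in neither genotype alone. For Lum and Dcn both wild-type groups stood above both knockout groups, and again no step between limb types passed. For Epyc the forelimb groups stood above the hindlimb groups, and the genotypes within a limb type overlapped.

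**Figure D4:**
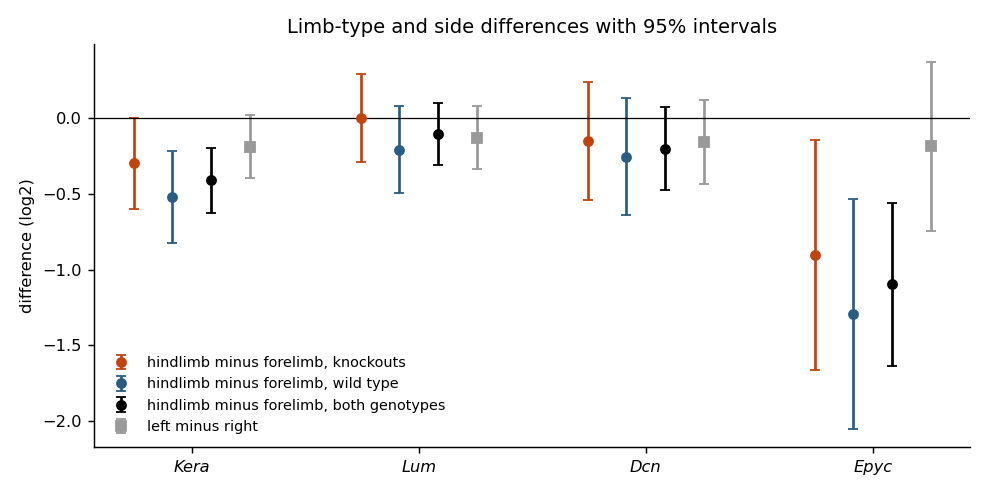
Differences in log2 intensity (vertical axis) with 95% intervals for hindlimb minus forelimb in knockouts, in wild type and over both genotypes, and for left minus right, for each of the 4 genes. The interval over both genotypes lies below 0 for Kera (-0.622 to -0.193) and Epyc (-1.64 to -0.561) and holds 0 for Lum and Dcn, and every left minus right interval holds 0.

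The limb-type difference came with differences in tissue markers. Of the 27 skeletal muscle markers 24 were lower in hindlimbs over both genotypes, with a median of -0.48 against 0.012 over all genes, and 4 of 11 tendon markers were lower. Over all genes 3.99% were lower in hindlimbs and 1.97% higher. Of the 15 cartilage markers 0 passed in limma (4 at an unadjusted p under 0.05), with a median of -0.08, and Matn1, the gene of the cartilage protein matrilin-1, differed by -0.67 (SE 0.315, limma adjusted p = 0.226). With the muscle list as a covariate the Kera value was 0.05 (adjusted p = 0.994) and the Epyc value -0.64 (adjusted p = 0.93). With the tendon list they were 0.07 (adjusted p = 0.951) and -0.48 (adjusted p = 0.865). With the cartilage list they stayed past the threshold, at -0.39 (adjusted p = 0.0248) and -0.999 (adjusted p = 0.00564). The part of muscle and tendon in the limb-type difference was not tested. Among the other small leucine-rich proteoglycans 6 of 13 were lower in hindlimbs and 0 higher, where 3.99% of all genes were lower and 1.97% higher. Ecm2 fell by 0.79 (SE 0.102, adjusted p = 4.93e-05), Aspn by 0.86 (SE 0.181, adjusted p = 0.00588) and Bgn by 0.53 (SE 0.0910, adjusted p = 0.00101), and Fmod, Omd and Podn were the others. Scx, Plxnc1 and these limb-type examples were chosen after their values were seen.

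Left and right limbs were compared with side added to the groups. Left minus right was -0.19 for Kera (SE 0.0996, limma adjusted p = 0.57), -0.13 for Lum (SE 0.0993, adjusted p = 0.709), -0.16 for Dcn (SE 0.133, adjusted p = 0.729) and -0.19 for Epyc (SE 0.267, adjusted p = 0.859). Of all genes 0% passed in limma, with 1889 at an unadjusted p under 0.05, and 1 probe set passed when all probe sets were tested.

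Whether the 4 genes vary together between limbs of 1 group was asked of the deviations from the group means, which hold no genotype or limb-type difference. Over 20 arrays Lum and Dcn followed each other closely, with Pearson r = 0.935 and Spearman rho = 0.952 (permutation within groups, two-sided, adjusted over 6 pairs p = 6e-05 for each, raw p = 1e-05, the smallest that 100000 permutations can give). Kera followed Dcn with r = 0.754 and rho = 0.723 (permutation, raw p = 0.00111 and 0.0028, adjusted p = 0.00333 and 0.00568). It followed Lum with r = 0.731 and rho = 0.725 (permutation, raw p = 0.00327 and 0.00284, adjusted p = 0.00654 and 0.00568). Without the 2 arrays farthest from the median these r were 0.91, 0.703 and 0.686. All 3 were positive in each of the 4 groups. Among 18633 genes ranked by r, Dcn had rank 65 and Lum rank 116 for Kera. Kera had rank 221 for Lum and rank 359 for Dcn, while Dcn had rank 1 for Lum and Lum rank 15 for Dcn. Many genes outside the cluster thus followed Kera more closely than its neighbours did, and the p-values above do not set the neighbours apart from other genes.

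The pairs with Epyc were looser. Lum and Epyc gave r = 0.598 and rho = 0.597 (permutation, raw p = 0.0176 and 0.0149, adjusted p = 0.0233 and 0.0224), Kera and Epyc r = 0.569 and rho = 0.487 (raw p = 0.0194 and 0.0535, adjusted p = 0.0233 and 0.0535), and Dcn and Epyc r = 0.475 and rho = 0.522 (raw p = 0.0784 and 0.0452, adjusted p = 0.0784 and 0.0535). Without the 2 farthest arrays r was 0.493, 0.423 and 0.281, and each was positive in 3 of the 4 groups. In wild-type forelimbs they were negative, at -0.868 for Lum and Epyc, -0.555 for Kera and Epyc and -0.838 for Dcn and Epyc (n = 5, as a description). Leaving out 1 array ended the call of Kera and Epyc for 5 of the 20 arrays and that of Lum and Epyc for 4, and brought Dcn and Epyc to r = 0.723 without wild-type forelimb replicate 1 (permutation, adjusted p = 0.00472) and 0.564 without wild-type forelimb replicate 5 (adjusted p = 0.0384). In the 13 male arrays alone r for Lum and Epyc was 0.123 and for Kera and Epyc 0.159 (permutation, adjusted p = 0.816 for each). In those arrays r for Lum and Dcn was 0.919 (adjusted p = 0.0212), for Kera and Lum 0.741 and for Kera and Dcn 0.704 (adjusted p = 0.0838 for each).

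**Figure D5:**
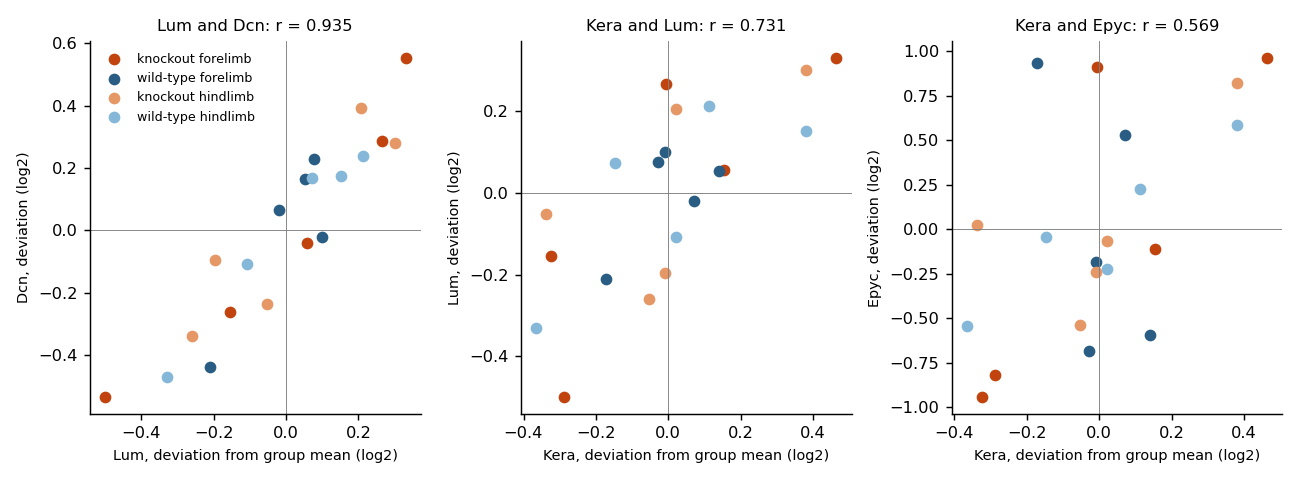
Deviation of each of the 20 arrays from its group mean (log2) for Lum and Dcn, Kera and Lum, and Kera and Epyc, coloured by group. Lum and Dcn lie close to a line (r = 0.935), Kera and Lum more loosely (r = 0.731), and Kera and Epyc more loosely still (r = 0.569).

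The same deviations were set against the mean of 13 marker lists, 52 relations in all, with permutation within groups. Positive relations passed with 6 of the 13 lists for Kera, 7 for Lum, 7 for Dcn and 1 for Epyc, and Lum had 1 negative one, with limb mesenchyme and limb type (r = -0.542, rho = -0.549, adjusted p = 0.0489). By r, tendon, endothelium, macrophage, osteoblast, muscle and dermal fibroblast markers passed with Kera, Lum and Dcn, and epidermis with Lum and Dcn. Dcn and tendon did not pass by rho (r = 0.612, rho = 0.537, permutation, adjusted p of rho = 0.0766). Dcn and limb mesenchyme and limb type passed by rho alone (r = -0.554, rho = -0.608, permutation, adjusted p of rho = 0.0257). The closest lists are given for each. Dcn went with epidermis (r = 0.901, rho = 0.883, adjusted p = 0.00026), dermal fibroblast (r = 0.848, rho = 0.752, adjusted p = 0.00052), endothelium (r = 0.815, rho = 0.779, adjusted p = 0.00104) and macrophage markers (r = 0.793, rho = 0.714, adjusted p = 0.00104), where each adjusted p is that of r. Lum went with epidermis (r = 0.775, rho = 0.77, adjusted p = 0.00104) and endothelium markers (r = 0.724, rho = 0.725, adjusted p = 0.00689). With osteoblast markers r was 0.634 for Kera (adjusted p = 0.00104), 0.7 for Lum (adjusted p = 0.00026) and 0.772 for Dcn (adjusted p = 0.000347). Kera went with tendon (r = 0.743, rho = 0.74, adjusted p = 0.00695) and endothelium markers (r = 0.737, rho = 0.699, adjusted p = 0.00689). Epyc passed with cartilage markers alone (r = 0.637, rho = 0.671, adjusted p = 0.0166). Without the 2 arrays farthest from the median of the proteoglycan gene, r for Dcn and epidermis was 0.899, for Lum and epidermis 0.765, for Kera and tendon 0.632 and for Epyc and cartilage 0.694. The lists share the arrays and vary together, and their part in the pairs above was not tested. With the muscle list regressed out within groups the Lum and Dcn r was 0.9 (permutation, adjusted p = 0.00042).

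The genes most like each member were ranked among 18633 genes with established names, as a description. Over the deviations within groups, Kera was most like Crtap, a collagen prolyl-hydroxylation cofactor gene (r = 0.871), the muscle filament gene Des (0.865) and the matrix gene Sparc (0.847). Lum was most like Dcn (0.935), Car12, a carbonic anhydrase gene (0.922), and C1qtnf3 (0.921). Dcn was most like the keratinocyte gene Krtdap (0.975), Anxa2 (0.97) and the hyaluronan receptor gene Cd44 (0.969). Epyc was most like Matn1 (0.849), Camk2a (0.771) and Cmtm5 (0.761), while Lum had rank 96, Kera rank 149 and Dcn rank 559 for it. Krtdap and Cd44 differed between genotypes by -0.58 (SE 0.413, limma adjusted p = 0.548) and -0.10 (SE 0.166, adjusted p = 0.83).

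Over the log2 levels themselves, which hold the group differences, the order changed. Kera was most like Apod, a lipid-carrier gene (r = 0.968), the homeobox gene Emx2 (0.965) and Lum (0.963). Lum was most like the iron exporter gene Slc40a1 (0.976), Kera (0.963) and Apod (0.945). Dcn was most like Lum (0.942), Hpgd, a prostaglandin-degrading enzyme gene (0.93), and Slc40a1 (0.928). Epyc was again most like Matn1 (0.857), then Fkbp9 (0.854) and Tmbim1 (0.846).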

How the data were processed

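Single E13.5 limbs were labelled from 300 ng of total RNA for Affymetrix ST arrays, per the labels' protocols. The authors deposited linear intensities; per the submitters' processing notes the tool was RMA. Its version and the genome build were not given in the sources used here. Here log2 was taken with no pseudocount. Of 35512 probe sets, 21789 had 1 gene symbol and gave 19936 genes, the probe set with the highest mean standing for a gene. Names and gene order came from RefSeq (GRCm38.p6). All contrasts came from 1 fit with 4 group means in limma 3.58.1 (R 4.3.3; lmFit, eBayes), with Benjamini-Hochberg adjustment over all genes and a threshold of 0.05. Co-variation was tested by 100000 permutations within groups (Python 3.11.15, numpy 2.4.6). Covariate, leave-one-out and other alternatives were run, and the fit was tested on simulated data. The labels do not say whether limbs shared an embryo, so a p-value reflects limb-to-limb spread alone, and the number of arrays limits the precision. Named genes are the members, Lmx1b, limb-type markers, neighbours that passed or adjoin, up to 5 passing genes of a list by smallest p, and the 3 genes most correlated with each member. Members, lists and rules were chosen with earlier results of these data known.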

Additional observations from a re-analysis of the deposited data

How the results depend on the processing

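Of 1262 values of the 4 genes and their pairs under other settings, 43 changed sign, 2 of them called at first (Kera by limb type, below) and 7 of them knockout differences of Epyc, which have no test. In forelimbs and over both limb types the knockout differences of Kera, Lum and Dcn came closest to 0 with the tendon list, whose own level differs between the groups. With the tendon list they were -2.55 for Kera, -0.83 for Lum and -0.37 for Dcn over both limb types, and -2.44 for Kera, -0.75 for Lum, -0.19 for Dcn and 0.36 for Epyc in forelimbs. With the muscle list they were -2.73 for Kera, -0.96 for Lum and -0.40 for Dcn in forelimbs. In hindlimbs male arrays gave -2.77 for Kera, -0.85 for Lum, -0.50 for Dcn and 0.34 for Epyc. The Kera limb-type difference over both genotypes was 0.0461 with the muscle list and 0.0706 with the tendon list, the opposite direction, and those of Lum (0.31 and 0.29) and Dcn (0.39 and 0.29) turned too. The Kera value was -0.41 with all probe sets tested (adjusted p = 0.0511), -0.47 in male arrays (0.0527) and -0.32 with the main axis of within-group variation added (0.0776), an alternative chosen after seeing the data. For Epyc it was -0.64 with the muscle and -0.48 with the tendon list. In wild type with the muscle and the tendon list, the limb-type values turned to 0.0867 and 0.184 for Kera (adjusted p = 1 and 0.869), 0.34 and 0.37 for Lum and 0.54 and 0.47 for Dcn, and that of Epyc was -0.69 and -0.39 (adjusted p = 1 and 0.929). Under other settings Kera passed with quantile normalization (-0.52), array weights (-0.47), a mean-variance trend, a level of at least 5 or only the compared groups (-0.52 each) and male arrays (-0.60), and ranged from -0.61 to -0.43 with 1 array left out, passing in 7 of 20 such fits. Epyc passed with centred arrays (-1.31), array weights (-1.22), a trend or only the compared groups (-1.29 each) and male arrays (-1.47), and ranged from -1.46 to -1.06, passing in 5. In knockouts the muscle list gave 0.0054 for Kera and 0.25 for Dcn and the tendon list 0.11 for Dcn, while Lum, at 0.004, was -0.018 with centred arrays, -0.015 with array weights, -0.033 with a Y-linked covariate, -0.0056 in male arrays, -0.00095 with the cartilage list and from -0.12 to 0.087 with 1 array left out. The difference between genotype effects turned with the muscle list for Kera (-0.0813), Lum (-0.0651) and Dcn (-0.29) and with the tendon list for Kera (-0.23), Lum (-0.16), Dcn (-0.36) and Epyc (-0.19), and ranged from -0.030 to 0.24 for Dcn with 1 array left out. Left minus right turned in male arrays for Dcn (0.024) and Epyc (0.055). Limbs of the same side and number in 2 groups did not steadily deviate together (r from -0.313 to 0.256, with 2 of 5 pairs over 0.1 in each comparison). By Y-linked level the right forelimb and the right hindlimb of number 2 differed in sex, in wild type and in knockouts. An equal number therefore does not always mark limbs of 1 embryo, and a block of limbs by genotype and number can join both sexes. Where the sexes match, so few pairs cannot show it, and left and right limbs of 1 number were not compared by r. With the replicate block the Kera value in wild type was -0.52 (limma adjusted p = 0.049), and 393 against 406 genes passed over both limb types. The block with side could not be fitted and was not run. In male arrays r was 0.741 for Kera and Lum, 0.704 for Kera and Dcn, 0.159 for Kera and Epyc, 0.123 for Lum and Epyc and -0.0606 for Dcn and Epyc. Leaving out 1 array, r ranged from 0.462 to 0.71 for Kera and Epyc, from 0.52 to 0.774 for Lum and Epyc and from 0.356 to 0.723 for Dcn and Epyc, the highest 3 without wild type forelimb replicate 1. Genes past the threshold for genotype over both limb types numbered 406, but 67 in male arrays, 49 with the tendon list, 102 with the muscle list, 255 with centred arrays, 651 with limbs of 1 genotype and number as a random block and 768 with array weights. In forelimbs they numbered 253, but 28 with the tendon list, 37 in male arrays, 44 with the muscle list, 139 with a Y-linked covariate and 163 with only the compared groups; in hindlimbs 46, but 13 in male arrays and 82 with array weights. For limb type over both genotypes they numbered 1188, but 33 with the muscle list, 62 with the tendon list, 284 in male arrays, 742 with that axis and 2159 with array weights. In wild type they numbered 650, but 12 with the muscle list, 26 with the tendon list, 419 in male arrays and 1260 with array weights. In knockouts they numbered 123, but 13 in male arrays, 38 with the muscle list, 44 with only the compared groups, 57 with the tendon list and 210 with array weights. With all probe sets tested, 427 probe sets passed in wild type and 79 in knockouts. For the difference between genotype effects, 4 became 0 to 10. Leaving out 1 array moved these counts too: to between 260 and 595 for genotype over both limb types, 124 and 436 in forelimbs, 33 and 54 in hindlimbs, 804 and 1481 by limb type over both genotypes, 311 and 848 within wild type, and 60 and 140 within knockouts. Shifts over 1.5 times came without wild type forelimb replicate 3 and wild type hindlimb replicates 7 and 10 over both limb types; wild type forelimb replicates 1, 3, 4 and 5 and knockout forelimb replicates 2 and 4 in forelimbs; wild type forelimb replicates 3, 4 and 5 and wild type hindlimb replicates 6 and 9 within wild type; and, within knockouts, forelimbs 1 and 3 and hindlimbs 8, 9 and 10. The background shares move with these counts. The causes of these shifts were not tested.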
